A study of Mus musculus with 4 samples.

Results

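Lysosomal enzymes and membrane proteins were examined in mouse E14 embryonic stem cells after short hairpin RNA was directed against the transcript Lx8-SINE B2. Part of its name, SINE B2, is that of a family of short interspersed repeats. The group comprised 35 genes chosen by symbol from a list of cathepsins, glycosidases, sulfatases, lipid hydrolases, lysosomal membrane proteins and MiT transcription factors, out of 35976 gene rows in the deposited count table. All 35 symbols were found, and all 35 passed the filter on low counts that left 16209 genes for testing. No measured value was used to choose them by this rule, although results of these data were known when the list was drawn up.

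The 4 libraries formed 2 groups of 2. Control cells were given as genotype wild type and knockdown cells as knocked down, both of strain 12910la, and both were grown on gelatin, without feeder cells, in medium with serum and LIF. The protocol attached to all 4 libraries describes transfection with 1000 ng of pSuper puro, a vector that expresses a hairpin and a puromycin resistance gene, followed after 24 h by 3 days in puromycin at 1 ug/ml. What hairpin, if any, the control cells received is not given in the sources used here, nor is the number of hairpins. The titles of the knockdown libraries alone carry the word batch1, so the effects of knockdown and of batch cannot be told apart. Whether replicates were separate cultures is not said, so the spread that p-values measure may be technical. No row was found under the name of the target, and its level was not analysed here.

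Library totals ranged from 16383323 to 19867689 counts. Markers of embryonic stem cells were abundant in all 4 libraries, with summed levels of 7188 and 7096 CPM (counts scaled to library size) over 8 genes in the controls and 5208 and 5704 CPM in the knockdown libraries. Of these 8, Tdgf1 (1132 and 1552 CPM against 571 and 602 CPM, edgeR adjusted p = 0.0438) and Dppa5a were lower in both knockdown libraries, and the other 6, Pou5f1, Sox2 and Nanog among them, overlapped between groups. The summed level of 12 extraembryonic endoderm markers was 187 and 184 CPM in the controls and 477 and 219 CPM in the knockdown libraries, most of it from the basement membrane genes Lama1 and Col4a1. All 10 of these markers that were tested had log2 fold changes above 0, with a median of 1.05. At an unadjusted p below 0.05, 6 were higher, beside 11.0% of all tested genes, but 0 were called. Of these 12, Ttr, a late marker, was at 0 counts in both controls and in knockdown replicate 1, and at 1 count in knockdown replicate 2. Gata6 was at 1.85 and 2.80 CPM in the controls and 8.37 and 5.35 CPM in the knockdown libraries. The part of these endoderm markers in the results below was not tested. Markers of macrophages, cells rich in lysosomes, were nearly missing. Adgre1, Lyz2 and Tyrobp had 0 counts in every library, and Ptprc had at most 1 count. The summed level of the 9 macrophage markers, 19.0 and 13.1 CPM in the controls and 18.3 and 36.4 CPM in the knockdown libraries, was made up almost wholly of Cd68, which encodes a lysosomal membrane protein also made outside macrophages and had its highest level, 34.4 CPM, in knockdown replicate 2. In bulk libraries such as these, fewer cells of a type and less RNA per cell cannot be told apart.

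Lysosomes are acidic compartments that break down proteins, glycans and lipids delivered by endocytosis and autophagy. Their enzymes are made in the secretory pathway, receive a mannose 6-phosphate tag and are carried to the lysosome by receptors, while heavily glycosylated membrane proteins line the compartment. TFEB, TFE3 and MITF, the MiT factors, bind E-box sequences in the promoters of many lysosomal genes when nutrient signalling through mTORC1 falls. In mouse embryonic stem cells TFE3 is also known for a part in holding the undifferentiated state.

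A single one of the 35 transcripts passed the test, and the shift of the group as a whole was small and was not tested. By the quasi-likelihood F-test of edgeR, with Benjamini-Hochberg adjustment over the 16209 tested genes, 1 member, Gaa, rose and 0 fell, where 0.876% of all tested genes were called higher and 0.555% lower (1.43% in all). At an unadjusted p below 0.05, 8 members were higher and 0 lower, beside 11.0% and 8.58% of all tested genes. The 8 were Gaa, Grn, Tpp1, Ctsd, Hexa, Sgsh, Ctsa and Lamp1. Both knockdown libraries lay above both controls in 15 members and below both in 3 (Mitf, Ctsz and Lipa), while 17 overlapped. Over all tested genes the groups were apart in 27.3% upward and 24.6% downward, 51.9% in all. Leaving out the first or second control gave 29 and 26 members that did not overlap, beside 80.0% and 79.2% of all tested genes, and leaving out the first or second knockdown library gave 24 and 26, beside 72.9% and 70.8%. The median log2 fold change, knockdown over control, was 0.17 over the members and 0.01 over all tested genes, and 24 of the 35 members had a value above 0, beside 50.5% of all tested genes. The median log2 level of the members had an SD of 0.20 between replicates, but this measures levels and not differences within genes. Taken gene by gene, the median log2 difference of the members was -0.09 within the control pair (replicate 2 over 1). It was 0.06 within the knockdown pair and 0.11 to 0.24 for a knockdown library over a control. Members differed by a median absolute log2 value of 0.18 within the control pair, 0.35 within the knockdown pair, and 0.30 to 0.40 across groups. Together the 35 genes made up 0.291% and 0.269% of control counts and 0.353% and 0.391% of knockdown counts. The number of calls depended on the tool and on single libraries. DESeq2, the edgeR likelihood ratio test and the fit without a filter on low counts each called 4 members higher (Ctsd, Tpp1, Gaa and Grn), where these settings called 3.81%, 4.91% and 3.75% of all genes higher, and limma-voom called 1 (0.925% of all genes). Scaling by library size alone gave 2 (0.716%), and a fit with the replicate number as a block gave 3 (2.64%). Without control replicate 1 the count was 3 (2.26%), and without control replicate 2 or knockdown replicate 2 it was 0.

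**Figure D1:**
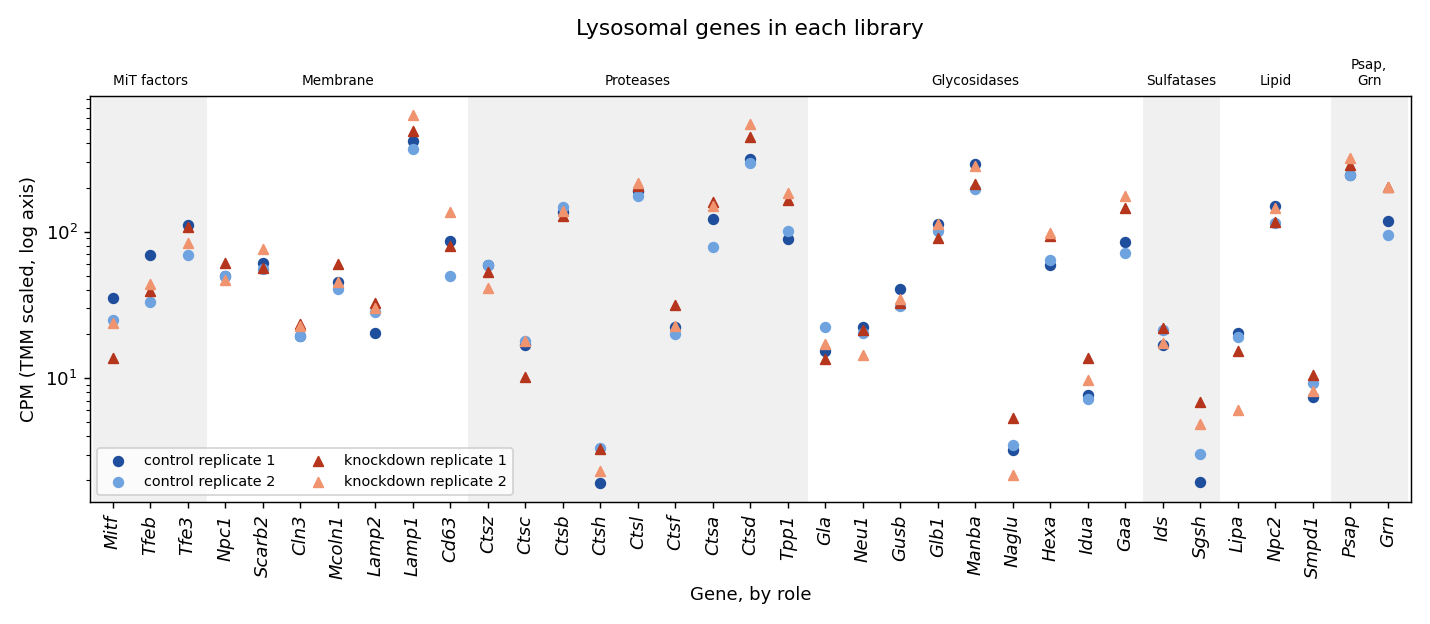
CPM of each of the 35 lysosomal genes in each of the 4 libraries, on a log axis, with circles for controls, triangles for knockdown libraries and genes grouped by role and ordered within a role by fold change. Levels span from about 2 CPM for Sgsh and Ctsh to 626 CPM for Lamp1, and the triangles lie above the circles in 15 genes.

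**Figure D2:**
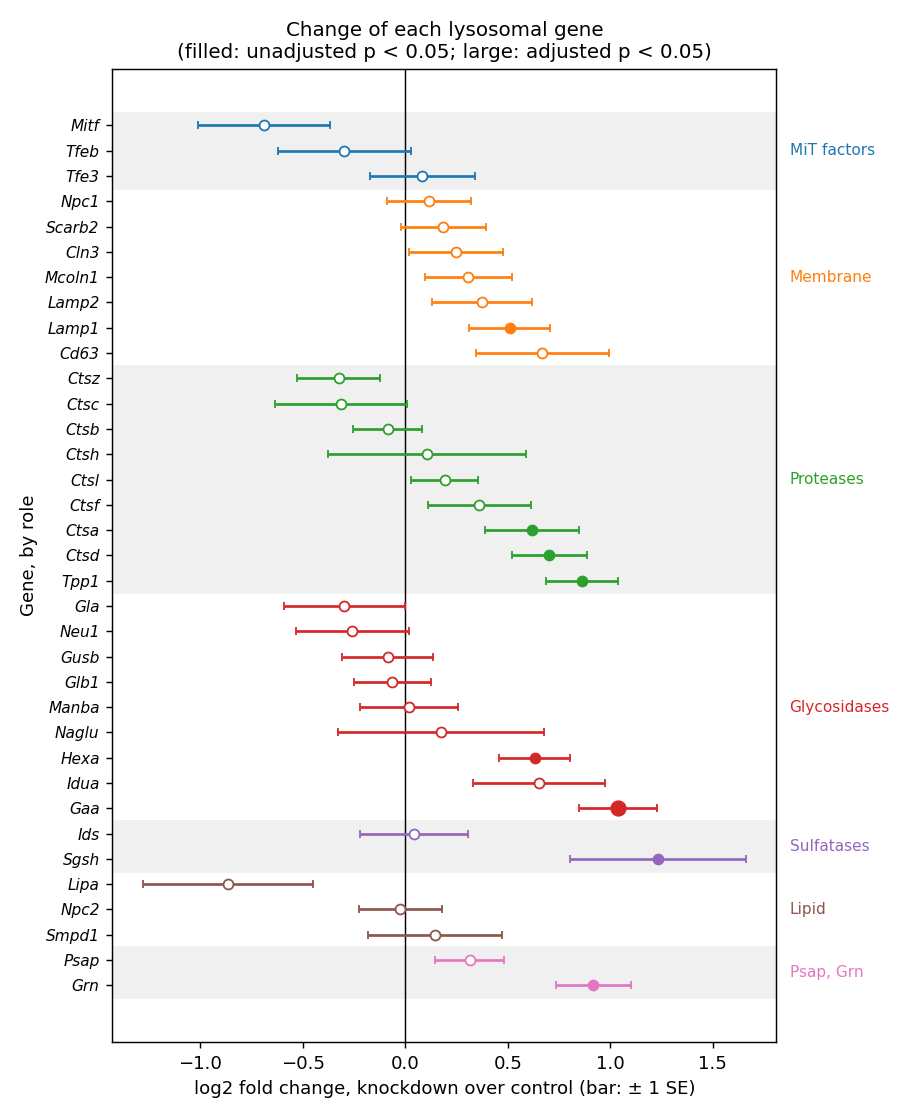
Log2 fold change of each gene, knockdown over control, with 1 standard error, coloured by role; filled points have an unadjusted p below 0.05 and the large point is the 1 gene with an adjusted p below 0.05. Gaa is the large point at 1.04, and Sgsh at 1.23 has a wider error bar.

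The 3 MiT factor genes were not called in either direction. Tfeb was at 69.1 and 33.1 CPM in the controls and 39.1 and 44.1 CPM in the knockdown libraries. The knockdown values lay between the 2 controls, and the log2 fold change was -0.30 ± 0.32 (SE; edgeR adjusted p = 0.66). It was -0.78 without control replicate 2 and 0.32 without control replicate 1, so the direction rests on which control is kept. Tfe3, the most abundant of the 3 per transcript length, was at 111 and 69.0 CPM in the controls and 108 and 83.0 CPM in the knockdown libraries, with overlapping groups and a log2 fold change of 0.08 ± 0.26 (SE). Mitf, best known as the master regulator of pigment cells, was at 35.5 and 24.9 CPM in the controls and 13.6 and 23.8 CPM in the knockdown libraries. Both knockdown values were below both controls, 1 of them narrowly, and the log2 fold change was -0.69 ± 0.32 (SE; edgeR adjusted p = 0.289). It was -0.35 without knockdown replicate 1 and -1.15 without knockdown replicate 2. In CPM per kilobase of exon (RPKM), the control means were 9.73 for Tfe3, 9.02 for Tfeb and 4.87 for Mitf, and the order of the first pair is within the spread of their libraries.

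The 7 membrane protein genes all had log2 fold changes above 0, from 0.12 to 0.67, and 0 were called. Lamp1, which encodes a main glycoprotein of the lysosomal membrane, was the most abundant of the 35 members per length, at 146 RPKM in the controls. Its level was 418 and 365 CPM in the controls and 488 and 626 CPM in the knockdown libraries. Both knockdown libraries were higher, and the log2 fold change of 0.51 ± 0.20 (SE) did not pass (unadjusted p = 0.033, edgeR adjusted p = 0.21). Lamp2, its paralog with an added part in chaperone-mediated autophagy, was at 20.1 and 28.2 CPM in the controls and 32.5 and 30.2 CPM in the knockdown libraries, and these groups did not overlap. Its log2 fold change was 0.38 ± 0.24 (SE). Per length it lay far below Lamp1, at 2.53 RPKM in the controls.

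Cd63, a tetraspanin gene of late endosomes and exosomes, was at 86.2 and 49.9 CPM in the controls and 79.8 and 137 CPM in the knockdown libraries. The groups overlapped, and its log2 fold change of 0.67 was 0.23 when knockdown replicate 2 was left out and 1.11 when control replicate 1 was. Mcoln1, which encodes the calcium channel TRPML1, was at 44.9 and 40.5 CPM in the controls and 60.1 and 45.5 CPM in the knockdown libraries, the lower of which lay just above the higher control. Cln3, named after a juvenile form of Batten disease, was at 19.3 and 19.5 CPM in the controls and 23.3 and 22.7 CPM in the knockdown libraries. It varied little within a group, and its log2 fold change was 0.25 ± 0.23 (SE). Npc1, the cholesterol exporter of the lysosomal membrane, and Scarb2, a glycoprotein gene of the same membrane, had overlapping groups and log2 fold changes of 0.12 and 0.19.

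The 9 protease genes were divided, with 6 above 0 and 3 below, and 0 were called. Tpp1, which encodes a tripeptidyl peptidase lost in late infantile Batten disease and lies on chromosome 7 from 105744811 to 105752235 (GRCm38, the assembly also called mm10), was at 89.7 and 102 CPM in the controls and 164 and 184 CPM in the knockdown libraries. Both knockdown values exceeded both controls by more than the spread within either group. The mean went from 95.6 ± 8.42 CPM to 174 ± 13.8 CPM (SD, n = 2 each), and the log2 fold change was 0.86 ± 0.17 (SE; edgeR adjusted p = 0.0566). Ctsd, the gene of the aspartic protease cathepsin D, on chromosome 7 from 142375911 to 142388038, was at 312 and 294 CPM in the controls and 443 and 543 CPM in the knockdown libraries. The controls were close together and the knockdown libraries both higher, with a log2 fold change of 0.70 ± 0.18 (SE; edgeR adjusted p = 0.0959). With DESeq2 the adjusted p of Ctsd was 0.026 and that of Tpp1 was 0.00303.

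Ctsa encodes a carboxypeptidase that also shields the enzymes made from Glb1 and Neu1 in a shared complex. It was at 122 and 78.8 CPM in the controls and 158 and 150 CPM in the knockdown libraries. The knockdown libraries agreed more closely than the controls, and the log2 fold change was 0.62 ± 0.23 (SE; edgeR adjusted p = 0.191). Leaving out control replicate 1 gave a call at 0.97, and leaving out control replicate 2 gave 0.28. Its partners did not share this direction. Glb1, the beta-galactosidase gene, was at 112 and 101 CPM in the controls and 90.6 and 113 CPM in the knockdown libraries, a log2 fold change of -0.06. Neu1, the sialidase gene, was at 22.2 and 20.4 CPM in the controls and 21.2 and 14.4 CPM in the knockdown libraries, a log2 fold change of -0.26. Both overlapped between groups, and the difference between these genes and Ctsa was not tested. Exons of Glb1 overlap those of Tmppe on the same strand, and exons of Ctsa overlap those of Pltp on the other strand, so reads shared between them would make these counts uncertain.

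The cysteine cathepsin genes showed small differences. Ctsl was at 189 and 176 CPM in the controls and 204 and 213 CPM in the knockdown libraries, which did not overlap, with a log2 fold change of 0.19 ± 0.16 (SE). Ctsb was at 135 and 148 CPM in the controls and 128 and 139 CPM in the knockdown libraries, which overlapped, with a log2 fold change of -0.09 ± 0.17 (SE). Of these endopeptidase genes, both abundant in the cells, neither was called. Ctsz, which encodes a carboxypeptidase, was at 59.5 and 58.9 CPM in the controls and 53.1 and 41.3 CPM in the knockdown libraries, both lower, with a log2 fold change of -0.33 ± 0.20 (SE). Ctsc, whose enzyme activates serine proteases of granules, was at 10.2 CPM in knockdown replicate 1 and at 16.8 to 18.0 CPM in the other libraries. Its log2 fold change of -0.31 was 0.04 without that library. Ctsf had a log2 fold change of 0.36, and Ctsh, at 1.90 to 3.32 CPM, was too weakly expressed for a narrow estimate (0.10 ± 0.48 (SE)).

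Among the 9 glycosidase genes, Gaa rose and the other 8 were not called. Gaa encodes acid alpha-glucosidase, which degrades glycogen in the lysosome and is lost in Pompe disease, and it lies on chromosome 11 from 119267887 to 119285454 with no exon of another gene over its own. It was at 84.5 and 70.9 CPM in the controls and 144 and 175 CPM in the knockdown libraries. Every knockdown value was more than 1.5 times every control. The mean went from 77.7 ± 9.60 to 160 ± 21.6 CPM (SD, n = 2 each), 2.05-fold, with a log2 fold change of 1.04 ± 0.19 (SE; edgeR adjusted p = 0.0461). The call was narrow. It was lost with either of 2 other scalings (edgeR adjusted p of 0.0575 with RLE size factors and 0.053 with upper quartiles), without control replicate 2 at 0.87 and without knockdown replicate 2 at 0.89, while the value stayed between 0.87 and 1.17 over the 4 fits that left out 1 library.

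Hexa encodes the alpha subunit of beta-hexosaminidase, the enzyme whose loss causes Tay-Sachs disease. It was at 59.3 and 64.4 CPM in the controls and 93.8 and 97.7 CPM in the knockdown libraries. Replicates lay close together in both groups, and the log2 fold change was 0.63 ± 0.17 (SE; unadjusted p = 0.00655, edgeR adjusted p = 0.106). Gm2a, no member, encodes the activator protein that presents the ganglioside GM2 to this enzyme and was named after its values were seen. It was at 29.7 and 26.9 CPM in the controls and 8.74 and 14.7 CPM in the knockdown libraries, a log2 fold change of -1.28 ± 0.30 (SE; edgeR adjusted p = 0.0788), which did not pass.

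The other glycosidases were near the controls or weakly expressed. Manba, the beta-mannosidase gene and the most abundant glycosidase in CPM, was at 288 and 194 CPM in the controls and 210 and 279 CPM in the knockdown libraries. The groups overlapped fully, with a log2 fold change of 0.02 ± 0.24 (SE). Gusb, the beta-glucuronidase gene often used as a reference in quantitative PCR, was at 40.6 and 30.9 CPM in the controls and 32.7 and 34.7 CPM in the knockdown libraries, a log2 fold change of -0.09. Gla, the alpha-galactosidase gene of Fabry disease, had a log2 fold change of -0.30 ± 0.30 (SE). Idua, whose enzyme trims heparan and dermatan sulfate, was at 7.61 and 7.21 CPM in the controls and 13.6 and 9.67 CPM in the knockdown libraries, which did not overlap, with a log2 fold change of 0.65 ± 0.32 (SE). Naglu, an enzyme of heparan sulfate breakdown, had 36 to 102 counts in a library and was at 3.22 and 3.48 CPM in the controls and 5.34 and 2.19 CPM in the knockdown libraries, with the controls between the knockdown values.

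The 2 sulfatase genes serve the breakdown of sulfated glycans and were not called. Sgsh, the sulfamidase gene of heparan sulfate breakdown, had 37 and 58 control counts, set against 130 and 80 in the knockdown libraries. These correspond to 1.95 and 3.01 CPM against 6.80 and 4.86 CPM. Its log2 fold change of 1.23 was the highest of all 35 members (SE 0.43, edgeR adjusted p = 0.172). Ids, the iduronate sulfatase gene, was at 16.9 and 21.3 CPM in the controls and 22.0 and 17.3 CPM in the knockdown libraries, with a log2 fold change of 0.04.

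The 3 genes of lipid handling were not called. Lipa, the acid lipase gene that frees cholesterol from its esters, was at 20.2 and 18.9 CPM in the controls and 15.3 and 6.08 CPM in the knockdown libraries. It had the lowest log2 fold change of the members, -0.87 ± 0.41 (SE; edgeR adjusted p = 0.297), which was -0.35 without knockdown replicate 2 and -1.69 without knockdown replicate 1. Npc2, the soluble carrier that hands cholesterol to NPC1, was at 149 and 115 CPM in the controls and 115 and 144 CPM in the knockdown libraries, a log2 fold change of -0.02 ± 0.20 (SE). Smpd1, the acid sphingomyelinase gene, was at 7.45 and 9.29 CPM in the controls and 10.4 and 8.09 CPM in the knockdown libraries, with overlapping groups and a log2 fold change of 0.15.

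Psap and Grn encode precursor proteins that travel to the lysosome together and are cut there into smaller products. Psap, the source of the saposins that help degrade sphingolipids, was at 242 and 245 CPM in the controls and 286 and 319 CPM in the knockdown libraries. Both knockdown libraries were higher, with a log2 fold change of 0.31 ± 0.17 (SE; edgeR adjusted p = 0.35). Grn, the progranulin gene on chromosome 11 from 102430315 to 102437048, was at 119 and 95.1 CPM in the controls and 201 and 203 CPM in the knockdown libraries. The knockdown libraries were nearly equal, and the mean went from 107 ± 16.7 to 202 ± 1.11 CPM (SD, n = 2 each). The log2 fold change was 0.92 ± 0.18 (SE; edgeR adjusted p = 0.0554). It passed with DESeq2 at an adjusted p of 0.00263, with scaling by library size alone at an edgeR adjusted p of 0.0499 and without control replicate 1 at 0.0247.

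**Figure D3:**
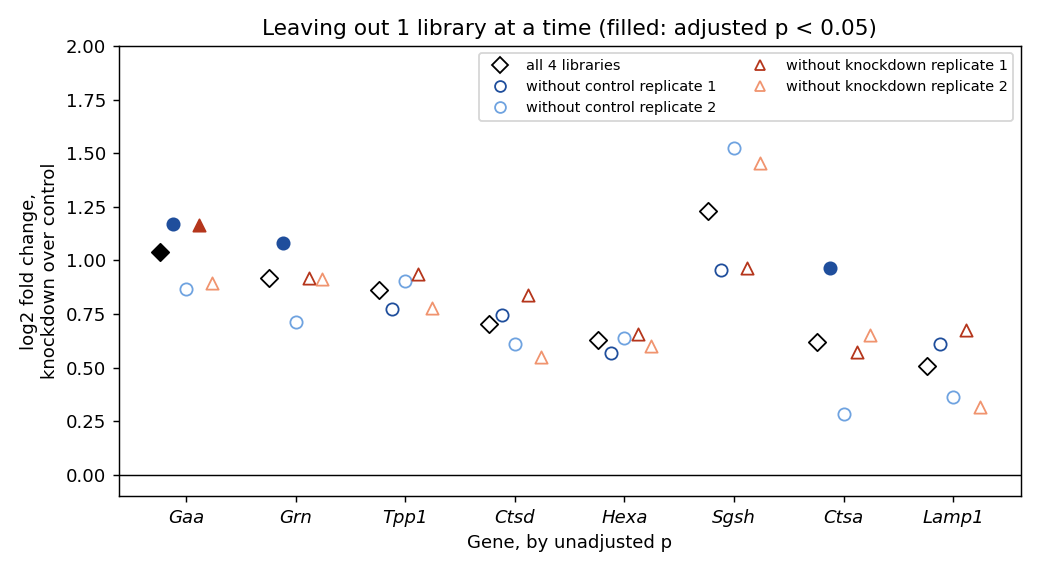
Log2 fold change of the 8 members with an unadjusted p below 0.05, from all 4 libraries (diamonds) and after leaving out 1 control (circles) or 1 knockdown library (triangles); filled symbols have an edgeR adjusted p below 0.05. Values run from 0.28 for Ctsa to 1.52 for Sgsh, both without control replicate 2. All are above 0, which was all but fixed in advance because both knockdown libraries lay above both controls in each gene. Only Gaa is filled with all 4 libraries.

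Since MiT factors bind the E-box CACGTG, the promoters of the members were searched for these letters. The windows ran from 250 bases before to 50 bases after each transcript start in RefSeq (GRCm38.p6), and 32 of the 35 members had at least 1. The E-box reads the same on both strands. It stood in a window of 12 of the 32 members, 37.5%, beside 11.4% of the 11839 tested genes with a window and 8.09% of all 27025 genes with a window. The longer palindrome TCACGTGA, which contains the E-box, stood in 5 of the 32, 15.6%, beside 1.95% of tested genes. These were Ctsa, Ctsd, Mcoln1, Cln3 and Gla. The median GC content, taking the window with most GC of each gene, was 60.2% for the members and 61.3% for the tested genes. Of 20 E-box matches, 12 lay within 100 bases before the start. The stretches below are shown because they belong to members among the 8 with an unadjusted p below 0.05, or, for Mcoln1, Cln3 and Gla, hold the longer palindrome, and capitals mark the E-box.

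Lamp1 and Tpp1 are shown from 150 bases before the start to the last base before it, at chr8:13159011-13159160 on the plus strand and chr7:105752236-105752385 on the minus strand. Lamp1 holds 4 E-boxes and Tpp1 holds 0.
Lamp1: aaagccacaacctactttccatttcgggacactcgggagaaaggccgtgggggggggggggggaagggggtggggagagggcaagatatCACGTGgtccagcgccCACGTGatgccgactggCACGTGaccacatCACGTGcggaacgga
Tpp1: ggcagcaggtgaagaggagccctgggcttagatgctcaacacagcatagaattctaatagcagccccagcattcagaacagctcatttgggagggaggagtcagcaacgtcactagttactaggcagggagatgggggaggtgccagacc

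The next 7 are 30-base stretches around 1 E-box each, given 5′ to 3′ on the strand of the gene, at chr11:119267811-119267840 for Gaa, chr7:142387908-142387937 for Ctsd, chr2:164833749-164833778 for Ctsa, chr11:119355522-119355551 for Sgsh, chr8:3500462-3500491 for Mcoln1, chr7:126583340-126583369 for Cln3 and chrX:134601182-134601211 for Gla. Ctsd, Sgsh, Cln3 and Gla lie on the minus strand. All but the Gaa stretch also touch an exon of some annotated transcript.
Gaa: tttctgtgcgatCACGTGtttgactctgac
Ctsd: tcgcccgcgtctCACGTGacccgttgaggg
Ctsa: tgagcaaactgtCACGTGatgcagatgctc
Sgsh: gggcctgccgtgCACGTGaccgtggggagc
Mcoln1: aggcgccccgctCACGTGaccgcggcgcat
Cln3: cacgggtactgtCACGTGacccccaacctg
Gla: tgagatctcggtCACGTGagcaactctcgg

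**Figure D4:**
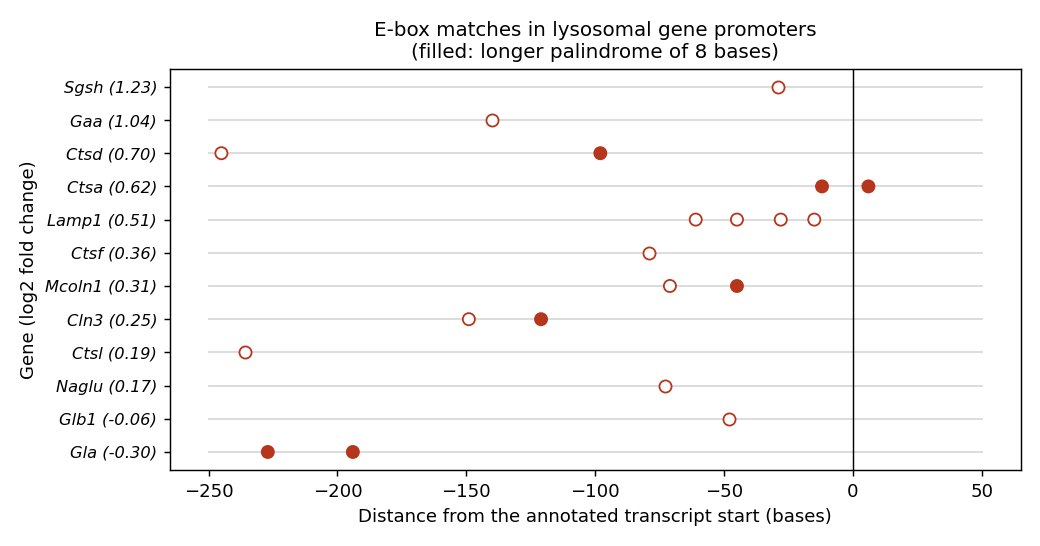
Position of each E-box match relative to the transcript start in the 12 members that hold one, ordered by log2 fold change (in brackets); filled points are matches within the 8-base palindrome, and grey lines span the searched window from 250 bases before to 50 after the start. Lamp1 holds 4 matches between 61 and 15 bases before its start, and Gla, at -0.30, holds 2 farther away.

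Members with an E-box in a window numbered 12, of which 10 had a log2 fold change above 0, with a median of 0.33. Those with a window but no E-box numbered 20, of which 12 were above 0, with a median of 0.06. Over all tested genes with a window the medians were 0.02 with an E-box and 0.00 without. Of the 8 members with an unadjusted p below 0.05, 5 held an E-box (Gaa, Ctsd, Ctsa, Sgsh and Lamp1), while Tpp1, Grn and Hexa held none in these windows. These are descriptions of letters in a fixed window, with no test of the difference, and a match is not a bound site.

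Other genes of the lysosome were taken from 6 lists. These cover 159 tested genes, and the calls among them were 1 higher and 1 lower, beside 0.876% and 0.555% of all tested genes. Of 27 tested genes for other lysosomal membrane proteins and transporters, 1 rose and 0 fell, with a median log2 fold change of 0.20. Laptm5, a transmembrane protein gene first known from blood cells, rose 3.12-fold, from 75.6 and 47.3 CPM in the controls to 158 and 226 CPM in the knockdown libraries, with a log2 fold change of 1.64 ± 0.27 (SE; edgeR adjusted p = 0.0381). The call was lost without control replicate 2 at 1.29 and without knockdown replicate 2 at 1.36. Cd68, the 1 abundant macrophage marker and itself in this list, was at 16.8 and 11.3 CPM in the controls. It was at 17.0 and 34.4 CPM in the knockdown libraries, the lower of which lay barely above the higher control. Its log2 fold change was 0.87 (edgeR unadjusted p = 0.0486, adjusted p = 0.252). Itgam, the other of the 2 macrophage markers that were tested, went the other way. It was at 1.90 and 1.66 CPM in the controls and 0.89 and 1.28 CPM in the knockdown libraries, a log2 fold change of -0.72. The part of these macrophage markers in the value of Laptm5 was not tested. Of 19 proton pump subunit genes 1 fell, with a median of 0.24. That was Atp6v0a4, an isoform of a membrane subunit, at 8.67 and 9.55 CPM in the controls and 1.10 and 0.79 CPM in the knockdown libraries (log2 fold change -3.25, edgeR adjusted p = 0.0173).

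Of 32 tested genes for other hydrolases and their activators, 0 were called by edgeR, and the median log2 fold change was 0.11. At an unadjusted p below 0.05, 2 were higher and 3 lower, beside 11.0% and 8.58% of all tested genes. Man2b1, the lysosomal alpha-mannosidase gene and the most abundant of them in CPM, was at 138 and 118 CPM in the controls and 182 and 211 CPM in the knockdown libraries. Both knockdown libraries were higher, with a log2 fold change of 0.62 ± 0.18 (SE; edgeR adjusted p = 0.118). Acp5, which encodes tartrate-resistant acid phosphatase, was named after its values were seen and was at 10.9 and 11.1 CPM in the controls and 2.09 and 3.34 CPM in the knockdown libraries. Its log2 fold change of -2.01 ± 0.38 (SE) just missed the threshold (edgeR adjusted p = 0.0506). By DESeq2 the genes called in this list were 2, Gm2a and Acp5, and by limma-voom 1, Acp5, all lower, where these tools called 3.02% and 0.561% of all tested genes lower.

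The remaining 3 lists had 0 calls in either direction, and their medians were between 0.01 and 0.16. Of 30 genes for sorting and delivery, which include the mannose 6-phosphate receptors, 5 were higher and 2 lower at an unadjusted p below 0.05. Over all tested genes 11.0% were higher and 8.58% lower at that p. The abundant members Igf2r and Rab7, a receptor gene and a GTPase gene of late endosomes, had log2 fold changes of 0.05 and 0.02. Another list, of 25 tested genes, took in mTORC1, the RAG GTPases and other regulators of the MiT factors. mTORC1 and the RAG GTPases hold these factors in the cytosol, but not every gene of the list acts in that direction. Of the 25, 4 were higher and 1 lower at that unadjusted p, and Ywhaz and Mtor were at -0.29 and -0.03. Rragd, a RAG GTPase gene named after its values were seen, was at 40.2 and 22.1 CPM in the controls and 62.8 and 82.9 CPM in the knockdown libraries, both higher. Its log2 fold change was 1.23 ± 0.30 (SE; edgeR adjusted p = 0.0836), which was 0.81 when control replicate 2 was left out and 1.72 when control replicate 1 was, with calls in the fits without control replicate 1 and without knockdown replicate 1. Of 26 tested autophagy genes 5 were higher and 0 lower at the unadjusted p, beside the same 11.0% and 8.58% of all tested genes. Sqstm1, which encodes the autophagy receptor p62, was at 310 and 255 CPM in the controls and 526 and 719 CPM in the knockdown libraries, a log2 fold change of 1.14 ± 0.22 (SE; edgeR adjusted p = 0.0511) that passed without control replicate 1 and without knockdown replicate 1. Ulk1, the kinase gene that starts autophagy, was at -0.21. DESeq2 called 1 sorting gene (Nagpa), 1 mTORC1 or RAG gene (Rragd) and 4 of the autophagy list (Sqstm1, Uvrag, Atg14 and Gpnmb). By limma-voom the numbers were 0, 0 and 1 (Sqstm1), where these tools called 6.83% and 1.49% of all tested genes in either direction. Gpnmb, named after its values were seen, was at 1.80 and 0.83 CPM in the controls. It was at 6.49 and 27.8 CPM in the knockdown libraries, a log2 fold change of 3.70 ± 0.73 (SE, edgeR adjusted p = 0.0541).

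**Figure D5:**
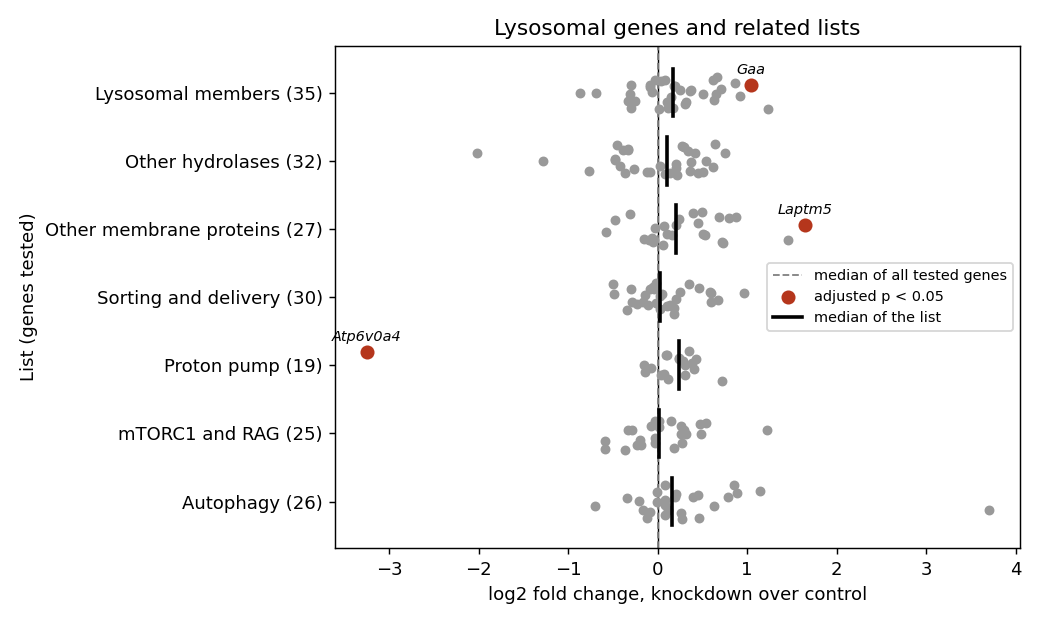
Log2 fold change of every tested gene in the lysosomal group and in 6 related lists, 1 point a gene, with black bars for list medians, a dashed line for the median of all tested genes and red points for genes with an edgeR adjusted p below 0.05. The list medians lie between 0.01 and 0.24, and the 3 red points are Gaa, Laptm5 and Atp6v0a4.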

How the data were processed

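The deposited table gives raw counts of reads per gene as the authors made them, 1 column per library and not normalized. Per the submitters' processing notes, cutadapt, HISAT2 and featureCounts were used with build mm10. Their versions, the gene annotation, the use of strand and the handling of multi-mapped reads are not stated there, so reads from overlapping genes cannot be assigned. Exons of 13 of the 35 members overlap another gene in GENCODE M21, in 8 cases a tested one.

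Of 36068 rows, 92 spike-in rows with 0 counts were left out. Low counts were filtered with filterByExpr (edgeR 4.0.16, R 4.3.3), TMM scaled the libraries, and the quasi-likelihood F-test of edgeR compared the groups, adjusted by Benjamini-Hochberg over 16209 genes and called below 0.05. CPM are scaled by TMM. A log2 fold change is that of knockdown over control, and its SE is its size over the square root of F. RPKM divide CPM by the union of exons in GENCODE M21. Totals were 16383323 to 19867689 counts, so for most members the 2 libraries a group, not counting error, set the precision.

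Members, lists, motifs and tests were chosen with earlier results of these data known. All members are reported. From the list of other hydrolases 3 genes are not reported here, and its counts are without them. From each related list the called genes were named, or with 0 called the 2 most abundant. From the other hydrolases only Man2b1 was named by abundance. Gm2a, Acp5, Rragd and Gpnmb were added after their values were seen, and Nagpa, Uvrag and Atg14 were named because DESeq2 called them. Alternatives were other scalings, filters and thresholds, DESeq2 1.42.0, limma-voom (limma 3.58.1), the likelihood ratio test, a replicate block, leaving out abundant genes and leaving out each library, where the lone library is taken to vary as the other group does.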

Additional observations from a re-analysis of the deposited data

How the results depend on the processing

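With 2 libraries a group the count of called members is small and unstable. Members called higher numbered 0 with RLE size factors, with upper quartile scaling and at an adjusted p of 0.01, 2 with library size alone, 4 without a filter on low counts, with DESeq2 and with the likelihood ratio test, and 3 with the replicate number as a block (Tpp1, Gaa and Grn; 2.64% of all genes higher). Over the 4 fits that left out 1 library the count ran from 0 to 3. Members called lower numbered 0 under every alternative run. The median log2 fold change of the members was lowest without knockdown replicate 1, at 0.09, and highest without knockdown replicate 2, at 0.26. Groups that do not overlap numbered 18 members in the main fit. They numbered 16 with RLE size factors, with upper quartile scaling and without a filter, and 19 with library size alone. With 1 library left out they numbered 24 to 29, where fewer libraries overlap less by construction. Over all tested genes the shares were 51.9% in the main fit and 70.8% to 80.0% with 1 library left out.

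The labels number the replicates but do not say whether equal numbers were paired. Deviations of same-numbered libraries from their group means correlated at -0.06, which with 2 libraries a group cannot settle this. The block called 656 genes in all against 232 without it, and raised the calls among autophagy genes to 3, among other hydrolases to 2 and among mTORC1 and RAG genes to 1. Its residual degrees of freedom were 1 against 2.

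Calls in the related lists moved as follows, and calls over all tested genes moved too. The latter numbered 232 of 16209 in the main fit, 173 with library size alone and 241 with limma-voom. They numbered 1107 with DESeq2, 1310 with the likelihood ratio test and 1717 of 26525 without a filter. Without the 50 most abundant and the mitochondrial genes they numbered 243 of 16147, and at 0.01 they numbered 17. Autophagy genes, 0 in the main fit, had 1 call with library size alone and with limma-voom. They had 5 without a filter and 4 with DESeq2 and with the likelihood ratio test. Other hydrolases, 0 in the main fit, had 2 without a filter, with DESeq2 and with the likelihood ratio test. They had 1 (Acp5) with limma-voom and without the 50 most abundant and the mitochondrial genes. Other membrane proteins had 2 without a filter and with the likelihood ratio test, and 0 at 0.01. The mTORC1 and RAG genes had 1 without a filter, with DESeq2 and with the likelihood ratio test. Sorting genes had 1 without a filter, with DESeq2 and with the likelihood ratio test. With 1 library left out, calls moved in these lists and over all tested genes alike. Proton pump genes had 0 at 0.01.

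Direction changed in these genes. Manba was at -0.0049 with RLE size factors and DESeq2 and at -0.01 with upper quartiles, Npc2 at 0.0277 and Mtor at 0.0178 with library size alone, and Rab7 at -0.0015 with RLE size factors and DESeq2 and -0.0077 with upper quartiles. With 1 library left out, log2 fold changes ran from -0.78 to 0.035 for Ctsc, -0.24 to 0.51 for Ctsh, -0.23 to 0.0839 for Glb1, -0.32 to 0.12 for Gusb, -0.14 to 0.20 for Ids, -0.29 to 0.33 for Manba, -0.62 to 0.67 for Naglu, -0.0898 to 0.29 for Npc1, -0.25 to 0.17 for Npc2, -0.0387 to 0.38 for Scarb2, -0.0526 to 0.32 for Smpd1, -0.27 to 0.47 for Tfe3, -0.78 to 0.32 for Tfeb, -0.0396 to 0.0881 for Igf2r, -0.18 to 0.0661 for Mtor and -0.19 to 0.20 for Rab7. The causes were not tested.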
